A study of Rattus norvegicus with 3 samples.

Results

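The library made from rats injected with lipopolysaccharide (LPS) was set against the library made from rats injected with poly(I:C), gene by gene, over all nuclei and without sorting them into cell types. Cell barcodes with at least 500 detected genes entered the comparison, 10491 from the LPS library and 13116 from the poly(I:C) library, which makes 23607 of the 44950 such barcodes in the series. A unique molecular identifier (UMI) counts 1 RNA molecule, and the UMIs of each gene were summed over these barcodes and scaled to a common total for each library (CPM). Both groups were wild-type female Crl:CD(SD) rats, an outbred stock, 12 weeks old, with no transgene or other allele named in the labels. Rats of the first group had been given 5 mg/kg LPS and rats of the second 12 mg/kg poly(I:C), each into the peritoneal cavity, and their brains were collected 7 hours later. Brain tissue of 4 animals went into each library as 1 pool, and no nucleus was traced back to its animal. With 1 library on each side there is no replicate, so no test was made and no p-value is given. Intervals in brackets are exact 95% intervals that cover counting error only, not differences between animals or preparations. The saline library of the series was not used, so the values below do not say which of the 2 libraries departed from untreated brain, and a sum over nuclei cannot tell apart fewer cells of a type and less RNA per cell.

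LPS is a component of the outer membrane of Gram-negative bacteria. It is sensed at the cell surface by Tlr4 with the help of Cd14, and it activates NF-kB, a transcription factor of inflammatory genes such as cytokines, neutrophil-attracting chemokines and adhesion molecules. Poly(I:C), a synthetic RNA duplex, imitates viral RNA. It is sensed by Tlr3 in endosomes and by Ifih1 (also called MDA5) in the cytosol, and it leads to the release of type I interferon, which switches on antiviral genes in many cell types through Stat2 and Irf9. Tlr4 can also lead to interferon release, and the RNA sensors can also activate NF-kB, so the branches overlap.

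The libraries differed in depth and in the share of barcodes without a UMI of the neuronal gene Syt1. The LPS barcodes carried a median of 2548 UMIs and 1375 genes, 29353560 UMIs in all, and the poly(I:C) barcodes a median of 1369 UMIs and 861 genes, 20332666 UMIs in all. The plot of UMIs per barcode shows this gap and a shoulder of shallow barcodes in the LPS library. No UMI of Syt1, a synaptic vesicle protein of neurons, was found in 1238 LPS barcodes, which held 4.59% of that library's UMIs, and in 727 poly(I:C) barcodes, which held 3.51%. The barcodes without Syt1 carried a median of 895.5 UMIs after LPS and 908 after poly(I:C), against 2740 and 1407 in the barcodes with Syt1, so the depth gap lay in the latter. A Syt1 UMI can come from free RNA, so this split is by RNA content and not by cell type. The 2 libraries shared 205 barcode sequences, and 558 LPS and 1004 poly(I:C) barcodes were called doublets and kept. Neuronal RNA was abundant, as the tissue label requires: 35 synaptic genes summed to 41422 CPM after LPS and 42334 CPM after poly(I:C).

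**Figure D1:**
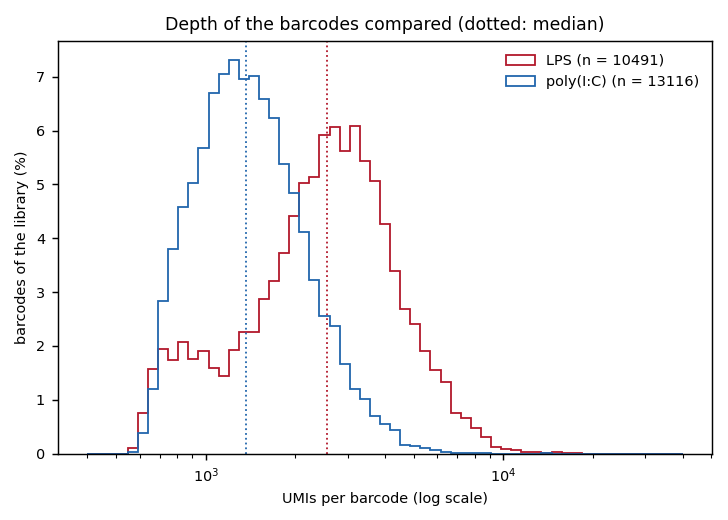
Distribution of UMIs per barcode (log scale) as a share of each library's barcodes, for the 10491 LPS and 13116 poly(I:C) barcodes compared; dotted lines mark the medians of 2548 and 1369 UMIs. The LPS barcodes are deeper, with a second group of shallow barcodes to the left.

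Most genes had nearly the same level in both libraries, and the genes that did not formed a smaller set on the poly(I:C) side and a larger set, mostly at low counts, on the LPS side. Of 14866 genes with at least 30 UMIs over both libraries, 77.5% lay within 1.25-fold, and the median log2 ratio of LPS to poly(I:C) was 0.06 (SD over genes 0.40). At least 2-fold higher in the LPS library were 382 genes, or 2.57%, and at least 2-fold higher in the poly(I:C) library were 137 genes, or 0.922%. The whole 95% interval lay beyond 2-fold for 72 genes (0.484%) on the LPS side and for 74 genes (0.498%) on the poly(I:C) side. By that stricter rule the sides were nearly equal in number. Of the genes past 2-fold, the interval excluded equal levels for 343 on the LPS side and 134 on the poly(I:C) side. Of the LPS-higher genes 240 had fewer than 100 UMIs and only 8 had 1000 or more, whereas 49 and 12 of the poly(I:C)-higher genes did. Together the LPS-higher genes held 1960 CPM after LPS and 811 CPM after poly(I:C), and the poly(I:C)-higher genes held 554 CPM and 2110 CPM. LPS-higher genes made up 73.6% of all genes past 2-fold, but 89.5% (1023 against 120) when each barcode was given the same weight, 49.5% (150 against 153) in barcodes with a Syt1 UMI and 52.0% (190 against 175) in barcodes with at least 1000 detected genes. A list of 58 interferon-stimulated antiviral genes held 35 of the 137 poly(I:C)-higher genes and 0 of the LPS-higher genes. Markers of astrocytes, the oligodendrocyte lineage, ependyma and choroid plexus held 25 of the 382 LPS-higher genes and 0 of the poly(I:C)-higher genes. No tested gene was at 0 UMIs in either library.

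**Figure D2:**
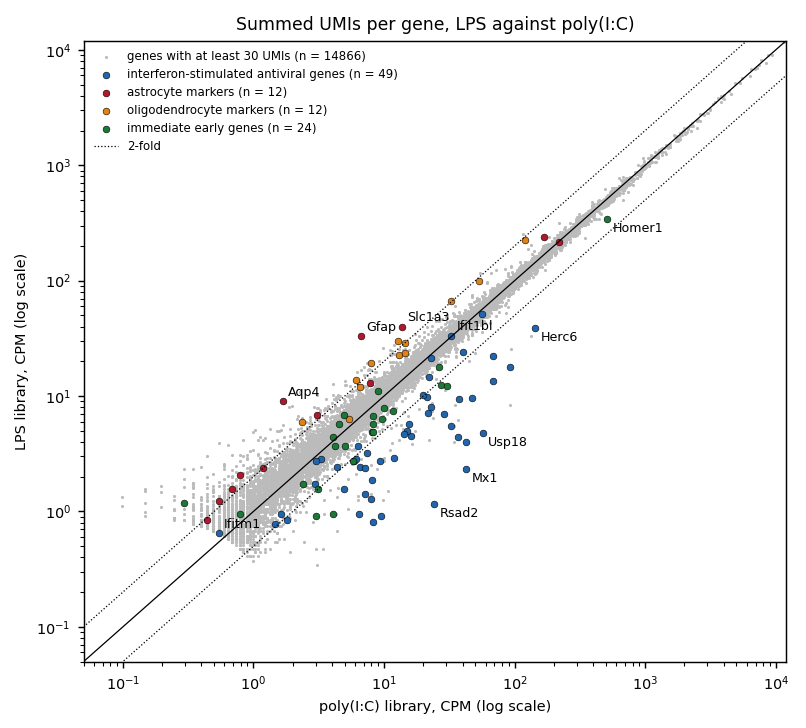
Each grey point is 1 of 14866 genes, at its CPM in the poly(I:C) library (x axis) and the LPS library (y axis), both on log scales; the solid line marks equal levels and the dotted lines 2-fold. Of the interferon-stimulated genes (blue) 35 lie below the lower dotted line, and of the astrocyte (red) and oligodendrocyte (orange) markers 8 and 5 lie above the upper one.

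Interferon-stimulated antiviral genes were higher in the poly(I:C) library, in most cases several-fold. Of 49 members with at least 30 UMIs, 35 were at least 2-fold higher after poly(I:C) and 0 after LPS, against 0.922% and 2.57% of all genes. The interval excluded equal levels in favour of poly(I:C) for 43 members, included it for 6, and excluded it in favour of LPS for 0. The median log2 ratio of the list was -1.60, against 0.06 over all genes. The summed level of the list was 386 CPM after LPS and 1177 CPM after poly(I:C). The list was at -1.87 over 48 members in barcodes with a Syt1 UMI, at -1.35 over 44 members in barcodes without one, and at -1.30 over 45 members after each barcode was thinned to 1000 UMIs. It was at -0.97, with 24 of 49 past 2-fold, when each barcode had the same weight. The first 3 values cover members with at least 30 UMIs in each setting.

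Genes whose products act on viruses or their RNA held many of the large ratios, with Rsad2 and Mx1 first. Rsad2, an enzyme that makes a chain-terminating nucleotide, had 34 UMIs (1.16 CPM) after LPS and 491 UMIs (24.1 CPM) after poly(I:C), a 20.8-fold difference [14.7 to 30.5]. Mx1, a dynamin-like GTPase that blocks viral nucleocapsids, had 68 UMIs (2.32 CPM) and 864 UMIs (42.5 CPM), 18.3-fold [14.3 to 23.8]. Its paralogue Mx2 was 8.43-fold higher [6.98 to 10.2]. All 3 had few UMIs after LPS and many more after poly(I:C). Ifit2, which binds viral RNA, was 10.6-fold higher [8.71 to 12.9] with 117 and 857 UMIs, and Ifit3 5.82-fold [4.89 to 6.95] with 163 and 657 UMIs. The oligoadenylate synthetase family, whose product activates an RNA-cutting enzyme, was represented by Oas1i with 24 and 166 UMIs (9.99-fold [6.48 to 16]), Oas1a with 28 and 131 UMIs (6.75-fold [4.46 to 10.6]) and Oas1k with 121 and 453 UMIs (5.40-fold [4.41 to 6.66]). Oasl, a relative that boosts RNA sensing, was 10.4-fold higher [6.91 to 16.1]. Reads of the near-identical Oas1, Mx, Ifit, Slfn, Gbp and RT1 copies may have been split or dropped in counting, so the ratio of a single copy is less certain than that of its family. Eif2ak2, the kinase that halts translation when it binds an RNA duplex, was 5.03-fold higher [4.50 to 5.64] with 399 and 1390 UMIs.

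The ubiquitin-like modifier Isg15 and the enzymes that handle it formed a second block. Isg15 itself had 38 UMIs after LPS and 161 after poly(I:C), 6.12-fold [4.27 to 8.96]. Its activating enzyme Uba7 was 5.02-fold higher [3.54 to 7.25], its conjugating enzyme Ube2l6 6.42-fold [3.92 to 11] and its rodent ligase Herc6 3.72-fold [3.48 to 3.99]. Herc6 was the list member with the most UMIs, 1137 after LPS and 2932 after poly(I:C). Usp18, which removes Isg15 from proteins and shuts off the interferon receptor, was 12.0-fold higher [10.0 to 14.4] with 140 and 1162 UMIs. Thus the conjugating enzymes and the enzyme that reverses conjugation were on the same side. Rnf213, a large ubiquitin ligase active against intracellular microbes, had 529 and 1877 UMIs, 5.12-fold [4.65 to 5.65]. A gene listed under a clone name whose RefSeq symbol is Ddx60, a helicase of the RNA-sensing pathway, was 7.12-fold higher [5.13 to 10.1].

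A minority of the list did not share this difference. After their values were seen, the following members were picked to describe it. Ifit1bl, a relative of Ifit2, had 977 and 663 UMIs, that is 33.3 CPM after LPS and 32.6 CPM after poly(I:C), a ratio of LPS to poly(I:C) of 1.02 [0.924 to 1.13]. Ifi27, a mitochondrial protein, was at 21.2 and 22.7 CPM, and its ratio of 0.934 [0.827 to 1.06] also spanned equality. Ifitm3, which blocks viral entry at membranes, was 1.67-fold higher after poly(I:C) [1.51 to 1.85] and so lay inside 2-fold. The counting intervals of Ifit1bl and Ifi27 excluded the 2-fold difference that the other 35 members reached.

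**Figure D3:**
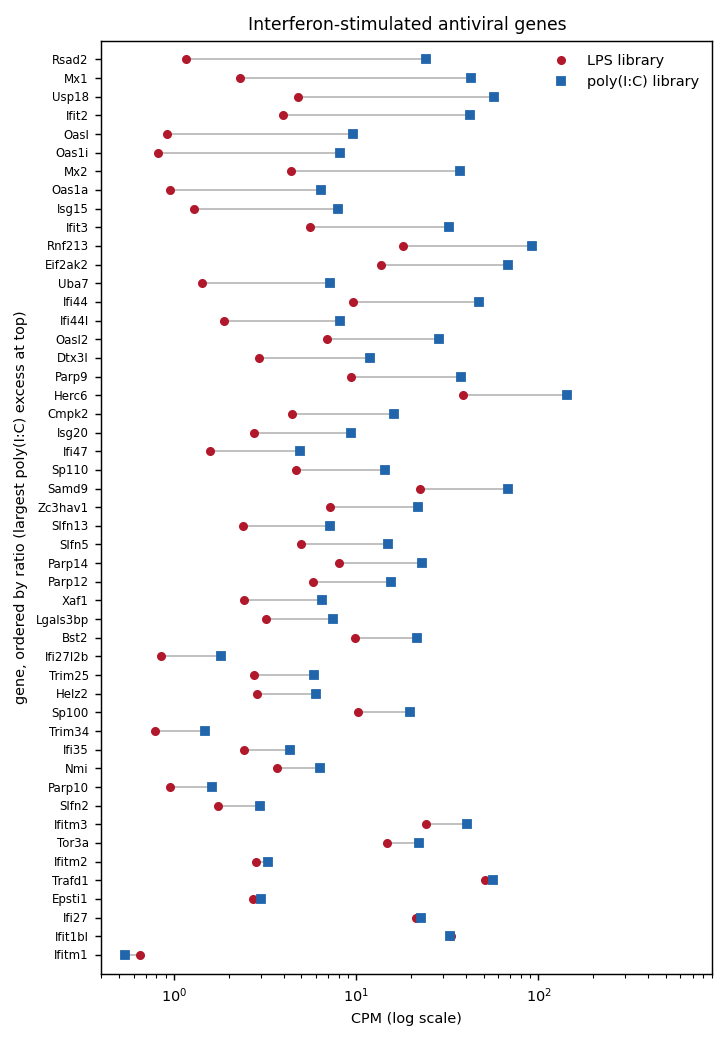
Levels of the 49 interferon-stimulated antiviral genes with at least 30 UMIs, in CPM on a log scale, in the LPS library (red circles) and the poly(I:C) library (blue squares), 1 value per library, ordered by ratio. The gap narrows from 20.8-fold for Rsad2 at the top to a ratio of 1.02 in the other direction for Ifit1bl near the bottom.

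Promoter sequences from RefSeq (rat build GRCr8) were searched in the 250 bases before the start for the interferon-stimulated response element core, written GAAANNGAAA, on both strands. UMIs were counted against another build, mRatBN7.2, so genes were matched by symbol. Of the 137 poly(I:C)-higher genes 88 had an entry, and 30 of these (34.1%) held a match, compared with 269 of 10541 tested genes (2.55%), 902 of all 27457 promoters (3.29%) and 6 of 260 LPS-higher genes (2.31%). Among the 49 poly(I:C)-higher genes with an entry and an interval beyond 2-fold, 25 (51.0%) held one. Within the interferon-stimulated list, 16 of 30 members past 2-fold and 5 of 12 members within 2-fold held a match, so its presence did not separate those members. Among the 20 leading poly(I:C)-higher genes 8 held a match. Mx1, Ube2l6, Oasl and Rnf213 had an entry and held none, and the rest had no entry. The match is shown in capitals for 7 of the 8 (Ddx60, with 2 matches, is not printed). The windows hold 60 bases, written 5′ to 3′ on the gene's strand, to show how the place of the element varies. The letters fixed in the pattern are alike between genes because the search required them.
Rsad2, chr6:48788233-48788292, minus strand: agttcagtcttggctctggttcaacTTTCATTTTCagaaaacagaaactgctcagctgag
Cxcl10, chr14:15988816-15988875, plus strand: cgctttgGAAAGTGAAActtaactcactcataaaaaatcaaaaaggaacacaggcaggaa
Oas1i, chr12:41285166-41285225, plus strand: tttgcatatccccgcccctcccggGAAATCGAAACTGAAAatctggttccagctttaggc
Oas1a, chr12:41330406-41330465, plus strand: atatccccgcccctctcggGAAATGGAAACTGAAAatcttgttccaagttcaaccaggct
Ifih1, chr3:67683993-67684052, minus strand: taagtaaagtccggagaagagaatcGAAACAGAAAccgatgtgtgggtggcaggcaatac
Ifit3, chr1:241527257-241527316, plus strand: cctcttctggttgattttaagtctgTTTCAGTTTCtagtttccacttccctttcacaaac
Eif2ak2, chr6:21941094-21941153, plus strand: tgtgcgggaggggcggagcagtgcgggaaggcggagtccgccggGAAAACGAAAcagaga
The match began 16 bases before the start in Eif2ak2, 30 in Oas1i, 35 in Oas1a, 44 in Ifit3, 59 in Ifih1, 147 in Rsad2 and 243 in Cxcl10. Rsad2 and Ifit3 carried it on the opposite strand, and Oas1i and Oas1a carried 2 overlapping copies. Mx1, with the second largest ratio, held no match in this window. A gamma-activated site, TTCNNNGAA, was found in 12.5% of poly(I:C)-higher, 6.15% of LPS-higher and 7.52% of all promoters. Its matches overlapped those of the response element in 13 promoters.

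Some genes higher after poly(I:C) also lay next to each other. In the RefSeq gene order, 20 of the 106 poly(I:C)-higher genes that could be placed (18.9%) had another such gene as a direct neighbour, compared with 12 of 333 LPS-higher genes (3.60%). The shares to be met in sets of these sizes were not worked out. The poly(I:C)-higher neighbours were Ifit2 with Ifit3, Oasl with Oasl2, Cxcl11 with Cxcl10, Rsad2 with Cmpk2, Ifi44 with Ifi44l, Psmb8 with Tap1, Slfn5 with Slfn13, the row Parp9, Dtx3l and Parp14, and the row Gbp4, Gbp2 and Gbp1. The pair of neutrophil chemokines Cxcl2 and Cxcl1 was among the LPS-higher neighbours.

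The receptors of the 2 agents were thinly covered, except the cytosolic RNA sensors. Tlr4 had 16 UMIs after LPS and 3 after poly(I:C), a ratio of 3.69 with an interval from 1.06 to 19.8, and Cd14 had 12 and 3 UMIs, a ratio of 2.77 [0.748 to 15.3]. Tlr3 had 29 and 28 UMIs, and its ratio of 0.717 [0.412 to 1.25] included equality. Ifih1 had 183 and 748 UMIs, 6.23 and 36.8 CPM, and was 5.90-fold higher after poly(I:C) [5.01 to 6.97]. Its relatives Ddx58 (also called RIG-I), with 118 and 702 UMIs, and Dhx58, with 68 and 181, were 8.59-fold [7.06 to 10.5] and 3.84-fold [2.89 to 5.16] higher. The 3 sensors of RNA duplexes in the cytosol were therefore on the poly(I:C) side. The list of sensors, adaptors and interferon signalling genes had 25 tested members. At least 2-fold higher after poly(I:C) were 5, and 0 after LPS, beside 0.922% and 2.57% of all genes. The remaining 2 of these 5 were Irf7, which amplifies interferon transcription, at 2.41-fold [2.04 to 2.86], and Stat2, which carries the interferon signal to the nucleus, at 2.19-fold [1.97 to 2.43]. The list as a whole had a median log2 ratio of 0.01. The interval excluded equal levels in favour of poly(I:C) for 9 of the 25, the 5 above among them. It did so in favour of LPS for 5 and included equality for 11. Picked after their values were seen, Irf3 stood at 31.3 and 29.7 CPM and the adaptor Mavs at 11.7 and 9.34 CPM.

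Genes known to respond to interferon gamma as well as to type I interferon were also on the poly(I:C) side. In the guanylate-binding list, 6 of 10 tested members were at least 2-fold higher after poly(I:C) and 1 after LPS (all genes 0.922% and 2.57%). The list had a median log2 ratio of -1.38. Gbp4 had 37 and 128 UMIs (4.99-fold [3.44 to 7.41]), Gbp1 31 and 107 (4.98-fold [3.31 to 7.69]) and Gbp5 121 and 263 (3.14-fold [2.52 to 3.92]); these GTPases attack vacuoles that hold microbes. Cd274, the checkpoint ligand PD-L1, was 2.94-fold higher [2.34 to 3.70]. The single LPS-higher member was Cd74, the invariant chain of class II antigen presentation, with 31 and 7 UMIs (3.07-fold [1.33 to 8.25]). In class I antigen presentation, 4 of 16 members were at least 2-fold higher after poly(I:C) and 0 after LPS, with a median of -0.38. These were the immunoproteasome subunit Psmb8 (2.93-fold [2.20 to 3.93]), the class I transactivator Nlrc5 (2.40-fold [1.97 to 2.93]), the peptide transporter Tap1 (2.18-fold [1.62 to 2.96]) and RT1-N3 (2.14-fold [1.31 to 3.56]). The class I median was 0.04 when each barcode had the same weight and -0.84 in barcodes with a Syt1 UMI, so this group's difference depended on which barcodes carried the weight.

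Cytokines and chemokines stood on both sides. Only 13 of 23 tested members had at least 100 UMIs, and among all genes with 30 to 99 UMIs 10.7% were LPS-higher. Of the 23 members, 7 passed 2-fold on the LPS side and 4 on the side of poly(I:C), beside 2.57% and 0.922% of all genes. This balance turned with the setting, and so did the number of members with enough UMIs. It was 2 against 5 of 18 with at least 1000 detected genes per barcode and 2 against 5 of 17 with a Syt1 UMI. After thinning it was 2 against 4 of 15, and with at least 100 UMIs 2 against 2 of 13. Without a Syt1 UMI it was 4 against 4 of 15, and over all deposited barcodes 7 against 5 of 23. It was 10 against 4 of 23 with each barcode weighing the same and 11 against 4 of 29 with at least 10 UMIs. On the poly(I:C) side were 3 chemokines that attract T and NK cells and a death ligand. Cxcl10 had 244 UMIs (8.31 CPM) after LPS and 1890 UMIs (93.0 CPM) after poly(I:C), an 11.2-fold difference [9.78 to 12.8], and Cxcl11, which binds the same receptor, had 973 and 2729 UMIs, 4.05-fold [3.76 to 4.36]. Ccl5 had 14 and 61 UMIs (6.29-fold [3.48 to 12.2]), and the death ligand Tnfsf10 had 28 and 70 (3.61-fold [2.30 to 5.81]). The third ligand of the Cxcl10 receptor, Cxcl9, stayed within 2-fold with 647 and 722 UMIs, 1.61-fold [1.45 to 1.79]. Markers of T and NK cells themselves were near 0: the 9 that were found summed to 10 UMIs after LPS and 14 after poly(I:C), and 4 of them had 0 UMIs in both.

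On the LPS side were mainly ligands that act on neutrophils and monocytes. Cxcl2 had 114 UMIs (3.88 CPM) after LPS and 11 (0.541 CPM) after poly(I:C), 7.18-fold [3.86 to 14.8]. Cxcl1 had 149 and 21 UMIs, 4.91-fold [3.10 to 8.17]. The granulocyte growth factor Csf3 had 39 and 8 UMIs, 3.38-fold [1.56 to 8.37]. These 3 rested on at most 21 poly(I:C) UMIs, which the width of the intervals shows. Il1b, a fever-inducing cytokine, had 44 and 3 UMIs, a ratio of 10.2 [3.26 to 51.1], and the macrophage chemokine Ccl4 had 27 and 3, a ratio of 6.23 [1.92 to 32.1]. Ccl2, which attracts monocytes, was 2.26-fold higher [1.25 to 4.34], and the alarm cytokine Il33 had 28 and 9 UMIs, with an interval that included equality (0.989 to 5.19). Tnf, picked after its values were seen, had 32 and 13 UMIs, and its ratio of 1.71 [0.870 to 3.54] included equality. The sum and the median of the list differ in sign: its summed level was 175 CPM after LPS and 365 CPM after poly(I:C), and its median log2 ratio was 0.19. Neutrophil markers summed to 10.8 and 10.1 CPM (ratio 1.07 [0.899 to 1.29]). These were mostly S100a9, with 196 and 114 UMIs, and S100a8, with 77 and 46, and 2 of the 12 markers had 0 UMIs in both libraries. The median log2 ratio of S100a8 and S100a9 depended on the barcodes: it was 1.5 after thinning, 1.15 without a Syt1 UMI and -0.80 with one.

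The NF-kB list as a whole stood near equality. Of 27 tested members, 3 passed 2-fold in the LPS library and 0 in the poly(I:C) library, beside 2.57% and 0.922% of all genes, with a median log2 ratio of 0.11. They were Bcl3, a nuclear partner of NF-kB, with 104 and 27 UMIs (2.67-fold [1.73 to 4.24]), the inhibitor Nfkbie with 46 and 15 (2.12-fold [1.16 to 4.10]) and the subunit Relb with 140 and 47 (2.06-fold [1.47 to 2.94]). Members with more UMIs, named after their values were seen, were close to equal: Nfkb1 at 74.4 and 75.2 CPM, the antioxidant enzyme Sod2 at 32.8 and 32.4 CPM, and the inhibitor Nfkbia at 24.9 and 17.9 CPM, 1.40-fold higher after LPS [1.23 to 1.59]. With at least 1000 detected genes per barcode, 0 of 25 NF-kB members passed 2-fold on the LPS side and 2 on the poly(I:C) side. The ratio of Bcl3 was then 0.844, towards poly(I:C). In barcodes with a Syt1 UMI 0 of 25 members passed 2-fold on either side, and in barcodes without one 6 of 20 did on the LPS side and 0 on the other.

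Acute phase genes and adhesion molecules of the vessel wall gave a few LPS-higher members at low counts. Among all genes with 30 to 99 UMIs, 10.7% were LPS-higher, and the counts of the next lists are to be read beside that share. Of 24 acute phase and Stat3 target genes, 3 passed 2-fold on the LPS side and 0 on the other, with a median log2 ratio of 0.23; in barcodes with at least 1000 detected genes it was 1 against 1. Lcn2, which withholds iron from bacteria, had 237 UMIs (8.07 CPM) after LPS and 38 (1.87 CPM) after poly(I:C), 4.32-fold [3.06 to 6.26]. The metalloreductase Steap4 and the secreted lectin Chi3l1 were 2.60-fold [1.16 to 6.56] and 2.20-fold [1.35 to 3.74] higher. Of 13 leukocyte adhesion genes 3 were LPS-higher and 0 poly(I:C)-higher. These counts were 0 and 1 of 10 with at least 1000 detected genes per barcode and 1 and 1 of 10 with a Syt1 UMI. They were 4 and 0 of 9 without a Syt1 UMI and 8 and 0 of 13 with each barcode weighing the same. E-selectin (Sele), which slows rolling leukocytes, had 33 and 7 UMIs (3.27-fold [1.42 to 8.75]), Icam1, which arrests them, 60 and 14 (2.97-fold [1.64 to 5.75]), and Pecam1, which lets them through, 186 and 64 (2.01-fold [1.51 to 2.72]). The endothelial cadherin Cdh5 was on the other side, with 169 and 201 UMIs (1.72-fold higher after poly(I:C) [1.39 to 2.12]). Endothelial markers summed to 43.7 CPM after LPS and 38.3 CPM after poly(I:C), with 2 of 9 LPS-higher. These were Pecam1 and Slco1a4, which are also counted in the adhesion and barrier lists, and Cdh5 is in the endothelial list too. The lists are therefore not separate observations, and the part of endothelial cells in these differences was not tested. Of 16 complement genes 2 were LPS-higher, both with fewer than 100 UMIs and so near the share above: C3, the central component, with 81 and 16 UMIs (3.51-fold [2.03 to 6.42]), and its fragment's receptor C3ar1 with 26 and 5 (3.60-fold [1.36 to 12.0]). Transporters of the blood-brain barrier were represented by Slco1a4, 3.02-fold higher after LPS [2.17 to 4.27], and Slco1c1, 3.02-fold [1.76 to 5.45], the only 2 of 15 barrier genes past 2-fold.

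The NF-kB consensus was searched in the same promoters on both strands. It was found in 35 of 260 LPS-higher genes with an entry (13.5%) and in 13 of 58 whose interval lay beyond 2-fold (22.4%), compared with 8.46% of tested genes, 10.2% of poly(I:C)-higher genes and 6.41% of all promoters. Among poly(I:C)-higher genes with an interval beyond 2-fold the share was 14.3%. Il1b and Icam1 held no match in this window. Among the 20 leading LPS-higher genes, of which Slc38a3, Lrrc36 and Acss3 had no promoter entry, a match was held by Cxcl2, Cxcl1 and Lcn2. The water channel Aqp4, the thyroid hormone carrier Ttr, Tinagl1 and Sdc4 of these leading genes also held one. Matches were thus not confined to inflammatory genes. Bcl3 and Nfkbie, from the NF-kB list and not among the leading genes, held one too. Windows of 60 bases are shown for 4 LPS-higher inflammatory genes picked from these, with the match in capitals, to set beside the interferon element.
Cxcl2, chr14:17467294-17467353, minus strand: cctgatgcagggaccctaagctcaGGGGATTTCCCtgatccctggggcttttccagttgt
Cxcl1, chr14:17479370-17479429, minus strand: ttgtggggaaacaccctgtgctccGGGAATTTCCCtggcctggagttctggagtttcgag
Lcn2, chr3:36081971-36082030, minus strand: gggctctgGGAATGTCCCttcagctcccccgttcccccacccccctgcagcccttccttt
Bcl3, chr1:88613559-88613618, minus strand: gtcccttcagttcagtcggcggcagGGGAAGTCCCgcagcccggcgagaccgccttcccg
The match began 38 bases before the start in Bcl3, 73 in Cxcl2, 83 in Cxcl1 and 242 in Lcn2. Cxcl2 and Cxcl1 carried 2 overlapping copies each, and Lcn2 carried its match on the opposite strand. A match describes the letters only and says nothing of binding.

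Markers of glia and of the ventricle lining were higher in the LPS library. Of all genes 2.57% were LPS-higher, and of those with 30 to 99 UMIs 10.7%. Of 12 astrocyte markers 8 passed 2-fold on the LPS side and 0 on the other, and the list summed to 564 and 423 CPM. Gfap, the intermediate filament of astrocytes, had 970 UMIs (33.0 CPM) after LPS and 135 (6.64 CPM) after poly(I:C), 4.98-fold [4.15 to 6.0]. The water channel Aqp4 had 265 and 34 UMIs, 5.40-fold [3.77 to 7.96], and the glutamate transporter Slc1a3 had 1175 and 277, 2.94-fold [2.58 to 3.36]. The astrocyte list had a median log2 ratio of 1.18, but 0.15 in barcodes with at least 1000 detected genes, 0.58 over 11 markers with a Syt1 UMI and 2.78 over 7 without. The named genes with the largest LPS ratios included further genes of astrocytes, among them Etnppl (3.94-fold), Rlbp1 (3.93-fold), Mlc1 (3.52-fold) and Ntsr2 (3.59-fold). Of 12 oligodendrocyte markers 5 were LPS-higher, and the list summed to 556 and 288 CPM. Mbp, a protein of compact myelin, stood just inside 2-fold at 1.91-fold [1.82 to 2.0]. Of 11 precursor markers 5 were LPS-higher, with Gpr17 at 51 and 7 UMIs and Olig2 at 62 and 10, and the list summed to 368 and 241 CPM. Choroid plexus markers were LPS-higher in 4 of 8, with Ttr, the thyroid hormone carrier, at 4.14-fold [2.95 to 5.94] and the list at 336 and 254 CPM. Ependymal markers were LPS-higher in 3 of 8, with Tmem212 at 4.93-fold [2.96 to 8.74] and the list at 82.3 and 72.9 CPM. In barcodes with at least 1000 detected genes, 0 of 12 oligodendrocyte (median log2 ratio 0.27), 0 of 9 precursor (0.07), 0 of 6 choroid plexus (0.33) and 0 of 8 ependymal markers (0.05) passed 2-fold. In barcodes with a Syt1 UMI 0 of 12 oligodendrocyte markers did, and in those without 11 of 12. No marker in these 5 lists was at 0 in both libraries. Microglia and macrophage markers differed less: 0 of 10 passed 2-fold, and the list summed to 66.4 and 64.6 CPM (ratio 1.03 [0.958 to 1.10]). The interval excluded equal levels in favour of LPS for 3 of the 10 and in favour of poly(I:C) for 0. With each barcode weighing the same 3 of 10 were LPS-higher, without a Syt1 UMI 2 of 6, and with at least 1000 detected genes 0 of 8. The macrophage receptor Adgre1, a gene outside that list and among the 20 largest LPS ratios, had 142 and 20 UMIs (4.92-fold [3.07 to 8.30]). Mural markers were at 56.0 and 61.6 CPM, with 0 of 9 past 2-fold. The part of cell makeup in the LPS-higher genes was not tested.

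**Figure D4:**
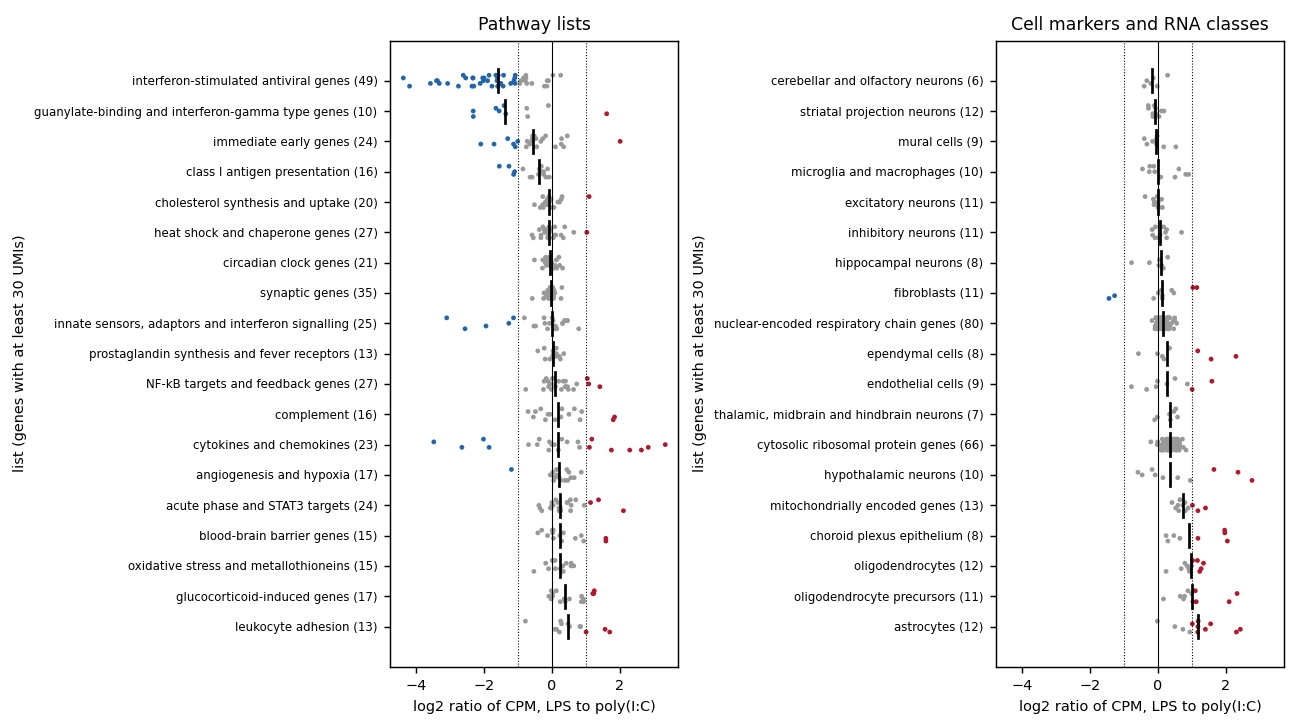
Each point is 1 gene with at least 30 UMIs at its log2 ratio of LPS to poly(I:C) CPM, by pathway list (left) and by cell marker or RNA class (right); black bars are medians, dotted lines 2-fold, red points LPS-higher and blue points poly(I:C)-higher genes, and numbers in brackets the genes shown. The interferon-stimulated list lies furthest left, with a median of -1.60, and the astrocyte list furthest right, with a median of 1.18.

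RNA encoded by the mitochondria, which nuclei should lack, was also higher in the LPS library. All 13 mitochondrial genes together were at 729 CPM after LPS and 441 CPM after poly(I:C). Of the 13, 3 were LPS-higher, beside 2.57% of all genes, and the median log2 ratio was 0.73. Cytosolic ribosomal protein genes, with 0 of 66 past 2-fold, had a median of 0.37. Their part in the other differences was not tested.

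Nearly all leading genes of both sides stood further towards LPS in barcodes without Syt1 than in barcodes with it. Ratios of interferon-stimulated genes were present among barcodes with and without Syt1. Rsad2 was 40.6-fold higher after poly(I:C) in barcodes with a Syt1 UMI and 12.9-fold in those without, Mx1 24.5-fold and 12.8-fold, and Usp18 18.8-fold and 4.11-fold. The poly(I:C) excess of these 3 was thus larger in barcodes with Syt1, and the LPS excess of the following genes was larger in barcodes without it. Gfap was 3.15-fold higher after LPS with Syt1 and 9.78-fold without, Aqp4 3.63-fold and 9.46-fold, Cxcl1 2.80-fold and 9.01-fold, and Lcn2 2.43-fold and 8.81-fold. Several of these ratios rest on few UMIs. Without Syt1 the poly(I:C) library held 26 UMIs of Gfap, 7 of Aqp4, 5 of Cxcl1 and 8 of Lcn2. For Rsad2, 22 of the 34 LPS UMIs lay in barcodes without Syt1, which left fewer for its ratio with Syt1. The differences between the 2 kinds of barcode were not tested. In barcodes without Syt1 the median over all genes was 0.17, a shift of 0.11 from the full comparison. The share of Usp18 UMIs that lay in barcodes without Syt1 was 44.3% [35.9 to 52.9] after LPS and 11.6% [9.83 to 13.6] after poly(I:C), by exact Clopper-Pearson intervals. For Cxcl10 it was 55.3% [48.9 to 61.7] and 39.9% [37.7 to 42.2]. For Gfap it was 49.5% [46.3 to 52.7] and 19.3% [13.0 to 26.9], and for Lcn2 56.1% [49.5 to 62.5] and 21.1% [9.55 to 37.3]. These shares were lower after poly(I:C) for all 4 genes, and the poly(I:C) library had fewer such barcodes (5.54% against 11.8%). Some genes went the other way, such as Gbp1, with 3.23% [0.0816 to 16.7] after LPS and 22.4% [14.9 to 31.5] after poly(I:C). The barcodes without Syt1 also differed in neuronal RNA: the synaptic list had a median log2 ratio of -0.89 there, with 11 of 34 members poly(I:C)-higher, and of -0.01 in barcodes with Syt1.

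**Figure D5:**
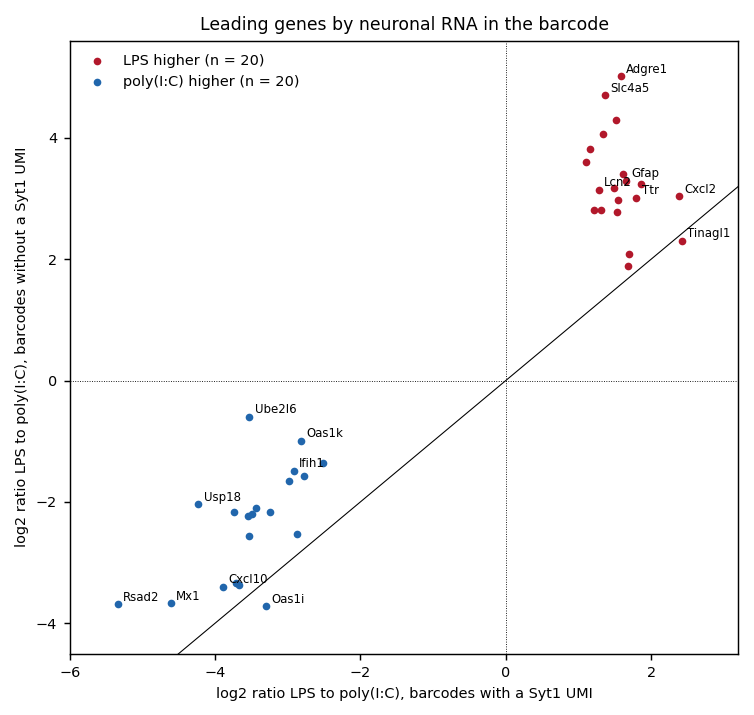
Log2 ratio of LPS to poly(I:C) in barcodes with a Syt1 UMI (x axis) and without one (y axis), for the 20 leading genes of each direction; the solid line marks equal ratios. All points but Oas1i and Tinagl1 lie above the line.

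Immediate early genes, which neurons switch on within minutes of activity, leaned to the poly(I:C) side. Of 24 tested members 6 were at least 2-fold higher after poly(I:C) and 1 after LPS, beside 0.922% and 2.57% of all genes. The list had a median log2 ratio of -0.55 and sums of 474 CPM after LPS and 710 CPM after poly(I:C). The stress factor Atf3 had 28 and 83 UMIs, 4.28-fold [2.76 to 6.82]. Fosb, a partner in the AP-1 factor, had 27 and 61, 3.26-fold [2.04 to 5.34]. The orphan receptors Nr4a3 and Nr4a1 had more UMIs, 360 and 615 (2.47-fold [2.16 to 2.82]) and 368 and 558 (2.19-fold [1.92 to 2.50]). Npas4, a neuron-restricted factor, was 2.11-fold higher [1.58 to 2.84]. Homer1, a scaffold of the synapse with an activity-dependent short form, was the most abundant member at 342 and 509 CPM and lay inside 2-fold (1.49-fold [1.45 to 1.53]). Fos, picked after its values were seen, was 1.36-fold higher [1.03 to 1.80]. Myc was the LPS-higher member, with 35 and 6 UMIs (4.04-fold [1.68 to 11.8]). In barcodes with Syt1 the list stood at -0.56, and in those without at -0.10 over 10 members.

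Neuronal genes and several stress programmes showed few or no members past 2-fold. None of 35 synaptic, 11 excitatory, 11 inhibitory or 12 striatal genes, and none of 21 circadian clock genes, 13 prostaglandin and fever genes or 15 oxidative stress genes, passed it in either direction. Heat shock genes had 1 LPS-higher member of 27, Cryab, a small chaperone (2.05-fold [1.43 to 2.97]), and cholesterol genes 1 of 20, the lipid exporter Abca1 (2.14-fold [1.85 to 2.49]). Of 17 genes induced by glucocorticoids, 3 were LPS-higher, beside 2.57% of all genes and 10.7% of those with 30 to 99 UMIs. Over all deposited barcodes 0 were, with a Syt1 UMI 0 of 16 and without one 8 of 15. The member with the largest ratio was Txnip, an inhibitor of thioredoxin, with 110 and 32 UMIs (2.38-fold [1.59 to 3.65]). Markers of hypothalamic neurons were LPS-higher in 3 of 10, beside the same 2.57% and 10.7%. The interval included equal levels for the other 7. Among these, Nkx2-1 stood furthest towards poly(I:C), with 24 and 25 UMIs and a log2 ratio of -0.59. The 3 LPS-higher members all lay in the range of 30 to 99 UMIs. Pomc had 89 and 9 UMIs (6.85-fold [3.45 to 15.5]), Hcrt 52 and 7 (5.15-fold [2.33 to 13.4]) and Pmch 59 and 13 (3.14-fold [1.70 to 6.25]). These 3 are made by small groups of hypothalamic neurons, and the labels do not say how much hypothalamus each pool held. The largest differences in CPM belonged to abundant genes with ratios near 1, such as the potassium channel partner Dpp10 (1.10-fold higher after poly(I:C)) and the protocadherin Pcdh9 (1.07-fold higher after LPS).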

How the data were processed

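Each library holds UMI counts per gene and barcode, which the authors deposited as unnormalised matrices, made with Cell Ranger 7.0.0 on the genome build mRatBN7.2, per the submitters' processing notes; the annotation release is not given in the sources used here. Barcodes with at least 500 detected genes were kept, which left out 720 LPS and 1885 poly(I:C) barcodes, and no filter on mitochondrial UMIs or doublets was applied. UMIs were summed per gene name and divided by the library's total. Ratios of CPM carry exact conditional (Clopper-Pearson) 95% intervals, and genes with fewer than 30 UMIs over both libraries were left out. The deeper LPS barcodes weigh more in such sums. A gene was counted as different from 2-fold upward, with no test, since each treatment has 1 library of 4 pooled animals. The 42 lists held 725 symbols, of which 51 were not found. The members and lists were chosen with earlier results of these data known.

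Genes were named by rule: in each direction, the 20 largest ratios among genes with at least 100 UMIs, an interval beyond 2-fold and a ratio of at least 2 after thinning barcodes to 1000 UMIs; the 10 largest CPM differences; and up to 6 members per list. The sensors Tlr3, Tlr4, Ifih1 and Cd14 were named whatever their counts. The calculation was tested on simulated data. The 13 alternatives changed the barcode filters, scaling, depth, UMI minimum, added count and weighting. The tools were scanpy 1.11.5 (with Scrublet for doublets), scipy 1.17.1, pandas 2.3.3, numpy 2.4.6 and matplotlib 3.10.9 under Python 3.11.15. Promoter sequences came from RefSeq (GRCr8).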

Additional observations from a re-analysis of the deposited data

How the results depend on the processing

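With 1 library a side, spread between animals is unknown, and depth limits genes under 100 UMIs most. No paired analysis was possible because each treatment has a single library. The count of LPS-higher genes, 382, became 190 with at least 1000 detected genes per barcode, 761 and 142 with at least 10 and 100 UMIs per gene, 150 and 1088 in barcodes with and without a Syt1 UMI, and 1023 with each barcode weighing the same. The count of poly(I:C)-higher genes, 137, became 334 and 88 with at least 10 and 100 UMIs and 542 in barcodes without Syt1. Of the 382 genes 87 and of the 137 genes 109 were shared with the setting of at least 1000 detected genes. Interferon-stimulated members higher after poly(I:C) stayed between 24 and 42 over the 13 alternatives. The 3 LPS-higher NF-kB members became 1 over all barcodes, 0 with at least 1000 detected genes, 0 and 6 with and without Syt1, and 10 with equal weight. The 3 acute phase members became 1 with at least 1000 detected genes, 8 after thinning, 1 with at least 100 UMIs, 1 and 8 with and without Syt1, and 9 with equal weight. With at least 1000 detected genes, 3 LPS-higher genes reversed, with ratios to poly(I:C) below 1: Bcl3 at 0.844, the precursor marker Enpp6 at 0.832 and the choroid marker Kl at 0.794. That setting kept 8013 LPS and 4304 poly(I:C) barcodes, and the cause was not tested. Over single named genes, 2642 ratios moved little, 596 moved more than counting error and 3 reversed.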

Other observations

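Genes outside the fixed lists were picked after their values were seen, to show what else stood on each side. The following were higher after poly(I:C). Stat4, a transducer of interferon and interleukin signals, had 756 UMIs after LPS and 1897 after poly(I:C), 3.62-fold [3.33 to 3.95]. Pml, which forms nuclear bodies, was 3.65-fold higher [2.98 to 4.49], Trim21, a cytosolic antibody receptor, 3.64-fold [2.80 to 4.76], and Slfn4 4.21-fold [3.63 to 4.88]. Mlkl, the membrane-breaking effector of necroptosis, had 47 and 91 UMIs (2.80-fold [1.95 to 4.06]), and its activating kinase Ripk3 had 13 and 25 (2.78-fold [1.37 to 5.91]).

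The following, most of them at low counts, were higher after LPS; among all genes with 30 to 99 UMIs, 10.7% were. Kif15, a spindle motor, had 145 UMIs after LPS and 32 after poly(I:C), 3.14-fold [2.13 to 4.76]. Top2a, which untangles DNA, had 33 and 2 UMIs, a ratio of 11.4 [2.92 to 98.3], Cenpf, a kinetochore protein, 39 and 2, a ratio of 13.5 [3.50 to 115], and Mki67, the Ki-67 antigen, 25 and 6, a ratio of 2.89 [1.16 to 8.60]. Vim, an intermediate filament of glia and vessels, was 3.34-fold higher [2.53 to 4.47]. Slpi, a protease inhibitor, had 36 UMIs and 1 UMI, a ratio of 24.9 with an interval from 4.20 to 1012. The inflammasome sensor Nlrp3 had 57 and 19 UMIs, 2.08-fold [1.22 to 3.70].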
